A study of Homo sapiens with 36 samples.

Results

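The 31 mRNAs described here belong to glucose breakdown and were followed in human colorectal cancer cells exposed to chemical imitators of hypoxia. They encode the enzymes of glycolysis with their isoforms, the lactate dehydrogenases, the enzymes that set the level of fructose 2,6-bisphosphate, and enzymes linked to sugar phosphates. The members were the rows of the mRNA count table whose gene symbol was on the list, and all 31 were found among 60591 rows. The symbols were listed by the role of the enzymes and not by a threshold on measured values. Messenger RNA was sequenced in 18 of the 36 libraries of the series, 3 replicates in each of 6 groups. Caco-2 and HT-29 are both established lines, and Caco-2 had been kept under differentiation conditions for 21 days, while no such step is given for HT-29. Line and culture state therefore cannot be told apart. Exposure lasted 24 h and was to 300 µM CoCl2, to 5 µM of an oxyquinoline derivative (OD) or, in the control groups, to 0.5 µl of dimethyl sulfoxide (DMSO) per ml of medium. OD was dissolved in DMSO and CoCl2 in water, and the labels name DMSO for the OD and control media alone. The methods of the study, which cover Caco-2, state that DMSO went into the CoCl2 medium too, and give its amount as 0.5%. That amount differs from the one in the labels, and which was used is not settled here. For HT-29 a solvent difference and CoCl2 cannot be told apart from the labels. The series design calls the 3 samples of a group biological replicates.

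Glycolysis turns glucose into pyruvate through a chain of cytosolic enzymes, and lactate dehydrogenase reduces pyruvate to lactate, which regenerates NAD+ when respiration is limited. Several steps are served by isoforms from separate genes that differ in affinity, regulation and tissue. Under hypoxia, hypoxia-inducible factor (HIF) escapes hydroxylation by prolyl hydroxylases and binds promoters of many of these genes at elements with the core ACGTG or GCGTG. Cobalt ions and oxyquinoline compounds inhibit those hydroxylases at normal oxygen. Tumour cells are known for high glycolytic activity even with oxygen.

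Each library held between 12925719 and 22332639 counts. Levels are given as RPKM (reads scaled to gene length and to library size), after TMM scaling (trimmed mean of M values) of the libraries of each line, so that members of different length can be compared. A gene was called when the edgeR quasi-likelihood test gave a Benjamini-Hochberg adjusted p (FDR) under 0.05 and an absolute log2 fold change over 1. Log2 fold changes are given ± standard error (SE), and levels as mean ± standard deviation (SD) with n = 3. The summed level of the 7 markers of intestinal epithelium was higher after treatment, at 4650.3 to 4809 CPM (counts scaled to library size) in the controls of Caco-2, 7205 to 7984 under CoCl2 and 6153 to 6550.3 under OD. In HT-29 it was 5120.1 to 5152, 6589.6 to 6947 and 6467 to 7074 CPM in the same order. The sum of the 3 goblet markers was lower, at 36.1 to 46.01, 21.7 to 23.9 and 26.2 to 29.2 CPM in Caco-2 cells and 32.1 to 36.4, 15.4 to 20.8 and 17.9 to 21.5 CPM in HT-29. Enterocyte markers summed to at least 2698 CPM in Caco-2 cells and at most 13.9 CPM in HT-29. Immune markers did not exceed 1.08 CPM in any library. Summed muscle markers reached at most 2.25, fibroblast markers 29.98 and endothelial markers 12.5 CPM in any library. The endothelial sum in Caco-2 lay between 8.38 and 12.5 CPM in control, 5.52 and 6.52 under OD and 2.16 and 2.91 under CoCl2. The part of these marker levels in the results was not tested.

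Promoter sequence was available from RefSeq (GRCh38.p14) for 29 of the 31 members, all but PFKFB2 and LDHD. The motif ACGTG was searched on both strands in the 250 bases before each annotated start, and 17 of the 29 members (58.6%) held it in at least 1 promoter, against 21.7% of 27305 genes. Members had more annotated starts per gene. Counted per promoter, 37.0% of the 54 member promoters held ACGTG against 18.5% of 35116. GCGTG was held by 33.3% of member promoters and 32.2% of all. Counted per gene, 17 of the 29 members (58.6%) held GCGTG, against 36.2% of all genes. These are matches of letters and not binding sites. Of the 18 members with a promoter that CoCl2 raised in both lines 12 held ACGTG, and of the other 11 members 5 did. The windows of 5 members are shown, picked after their values were seen, as 3 whose mRNA rose (LDHA, PGK1, ALDOC) and 2 whose mRNA did not (LDHB, FBP1). Parts that overlap an annotated exon are left out. Capitals mark ACGTG or GCGTG on either strand, which read CACGT or CACGC on the other, and CACGTG holds the motif on both strands. Each sequence runs 5′ to 3′ on the strand of its gene.
LDHA, chr11:18394313-18394559, plus strand: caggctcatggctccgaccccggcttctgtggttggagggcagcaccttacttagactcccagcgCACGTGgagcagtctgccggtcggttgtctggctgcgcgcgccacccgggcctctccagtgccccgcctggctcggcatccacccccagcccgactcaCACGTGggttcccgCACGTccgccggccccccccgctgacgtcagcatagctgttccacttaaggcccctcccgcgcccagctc
PGK1, chrX:78103998-78104247, plus strand: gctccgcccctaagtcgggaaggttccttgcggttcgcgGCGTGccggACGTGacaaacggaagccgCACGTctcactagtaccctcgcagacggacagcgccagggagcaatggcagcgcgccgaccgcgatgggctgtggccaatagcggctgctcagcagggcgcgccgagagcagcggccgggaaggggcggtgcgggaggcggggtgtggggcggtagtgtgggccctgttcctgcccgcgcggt
ALDOC, chr17:28576949-28577145, minus strand: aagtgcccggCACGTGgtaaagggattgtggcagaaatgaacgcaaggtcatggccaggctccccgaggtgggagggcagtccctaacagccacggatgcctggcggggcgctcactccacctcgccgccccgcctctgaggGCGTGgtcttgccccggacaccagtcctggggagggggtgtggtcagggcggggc
LDHB, chr12:21657972-21658092, minus strand: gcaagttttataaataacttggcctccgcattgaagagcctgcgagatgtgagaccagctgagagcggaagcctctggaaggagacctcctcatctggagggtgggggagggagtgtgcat
FBP1, chr9:94639519-94639768, minus strand: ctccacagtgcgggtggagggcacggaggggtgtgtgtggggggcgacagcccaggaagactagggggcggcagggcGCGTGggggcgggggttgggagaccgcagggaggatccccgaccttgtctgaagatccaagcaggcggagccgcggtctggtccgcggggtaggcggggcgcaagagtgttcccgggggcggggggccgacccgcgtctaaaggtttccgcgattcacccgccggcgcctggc
The LDHA window has 5 motif starts, all ACGTG, and the PGK1 window has 2 of ACGTG and 1 of GCGTG. The ALDOC window has 3 of ACGTG and 2 of GCGTG, of which some lie in the part left out. In the LDHB window neither occurs, and FBP1 has 1 of GCGTG. A second LDHA promoter, not shown, held 1 of GCGTG and no ACGTG. The windows shown do not stand for all members. HK1, HKDC1, PGAM1, PKM, ENO1 and PFKFB4 rose under CoCl2 in both lines with no ACGTG in any promoter. PKLR, PFKM, PGM2, BPGM and TIGAR held ACGTG and were not called higher under CoCl2.

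Members called higher outnumbered all other members in 3 of the 4 comparisons with control, the exception being OD in HT-29. With CoCl2 in Caco-2, 18 of 31 members were called higher and 4 lower, against 9.13% and 14.2% of all genes tested. With OD in Caco-2, 17 were called higher and 2 lower, where the background was 4.43% and 7.27%. In HT-29, 30 members could be tested, PKLR being too low. CoCl2 raised 20 and lowered 2, against a background of 17.4% and 23.9%, and OD raised 10 and lowered 0, against 9.5% and 7.57%. In that last comparison 3 members were lower at an unadjusted p under 0.05 in edgeR, and DESeq2 called 0 lower. A further 15 members passed the FDR in HT-29 under OD at smaller changes, and 25 of 30 passed at an FDR under 0.05 with no limit on size, as did 68.8% of all genes. The median log2 fold change of the members was 1.62 under CoCl2 and 1.10 under OD in Caco-2 cells, and 1.88 and 0.75 in HT-29, while the median over all genes tested lay between -0.03 and 0.01. CoCl2 and OD were compared with the same control libraries of a line. The 18 members that CoCl2 raised in Caco-2 were all among the 20 raised in HT-29 (100.0% of the first list and 90.0% of the second), and these lines share no library. For OD, 9 members were called higher in both lines, 52.9% of those in Caco-2 cells and 90.0% of those in HT-29. The matching overlap over all genes tested is not given here, so these shares do not show a trait particular to the members. Scaling by library size alone moved the median of all genes under CoCl2 to -0.35 in Caco-2 cells and -0.66 in HT-29, since the TMM factors differed between groups. Under that scaling 18 members were higher and 4 lower under CoCl2 in Caco-2, 18 and 3 under CoCl2 in HT-29, 15 and 2 under OD in Caco-2 cells, and 7 and 1 under OD in HT-29. Over all genes tested it moved the calls under CoCl2 from 1464 higher and 2283 lower to 870 and 3546 in Caco-2 cells, and from 2749 and 3775 to 1295 and 6250 in HT-29. In these bulk samples, fewer cells of a kind and less RNA per cell cannot be told apart.

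**Figure D1:**
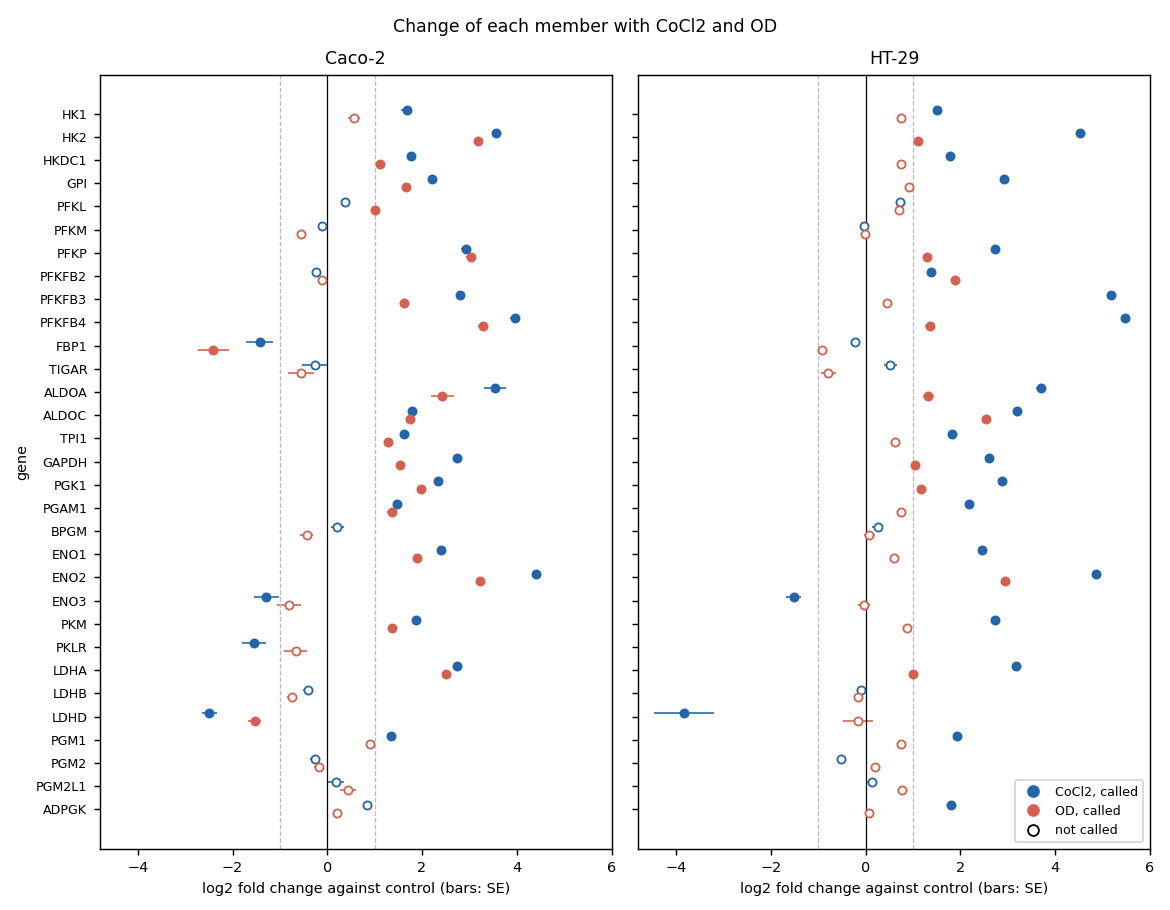
Log2 fold change against control of each of the 31 members (rows) under CoCl2 (blue) and OD (red) in Caco-2 (left) and HT-29 (right); bars are SE, dashed lines mark the limit of 1, filled points passed both thresholds. ENO2 and PFKFB4 stand farthest to the right under CoCl2 in Caco-2, at 4.41 and 3.97, and LDHD farthest to the left, at -2.49.

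The members' summed counts took 0.504%, 0.521% and 0.498% of all counts in the control libraries of Caco-2, 2.12%, 2.00% and 1.96% under CoCl2 and 1.52%, 1.45% and 1.48% under OD. In HT-29 the shares were 0.821%, 0.816% and 0.822% in control, 3.43%, 3.31% and 3.37% under CoCl2 and 1.47%, 1.35% and 1.39% under OD. No treated library overlapped the controls of its line. Relative to control the mean share was 3.99-fold under CoCl2 and 2.92-fold under OD in Caco-2 cells, and 4.11-fold and 1.71-fold in HT-29. For each agent a two-sided exact permutation test stratified by line gave p = 0.005, the smallest that its 400 relabellings allow. This share uses no scaling factors between libraries. As a part of the library total, it also moves with the counts of all other genes.

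Hexokinases phosphorylate glucose on entry and trap it in the cell. HK2, an inducible isoform that binds mitochondria, measured 5.55, 5.53 and 5.20 RPKM in the controls of Caco-2, 64.2, 64.5 and 63.5 under CoCl2 and 52.2, 50.6 and 45.3 under OD. In HT-29 it measured 6.02, 6.39 and 6.61 RPKM in control, 148, 147 and 142 under CoCl2 and 14.9, 12.5 and 13.4 under OD. All treated libraries lay above the controls of their line. HK2 rose by 3.56 ± 0.08 (log2) under CoCl2 and 3.18 ± 0.08 under OD in Caco-2 cells, and by 4.52 ± 0.06 and 1.10 ± 0.06 in HT-29, with FDR of at most 7.23e-15. The increase under OD in HT-29 fell to 0.96 with library sizes alone and to 0.99 without replicate 1, under the limit of 1, and to 0.97 in limma on the deposited log2 table. HK1, the broadly expressed isoform, was lower in Caco-2, at 1.83, 1.91 and 2.02 RPKM in control, 6.82, 5.30 and 6.22 under CoCl2 and 3.00, 2.67 and 2.84 under OD. HK1 in HT-29 stood at 14.996 ± 0.257 RPKM in control, 42.8 ± 1.14 under CoCl2 and 25.1 ± 0.943 under OD. CoCl2 raised HK1 by 1.67 ± 0.11 in Caco-2 cells and 1.51 ± 0.05 in HT-29, the latter 0.88 with library sizes alone. With OD the change of HK1 was 0.56 ± 0.12 in Caco-2 cells and 0.74 ± 0.05 in HT-29, which passed the FDR and not the limit on size. HKDC1, a hexokinase domain protein expressed in gut epithelium, rose under CoCl2 by 1.76 ± 0.09 in Caco-2 cells and 1.79 ± 0.06 in HT-29. In Caco-2 it went from 6.28 ± 0.255 to 21.4 ± 1.46 RPKM, and in HT-29 from 31.4 ± 3.48 to 109 ± 5.17 RPKM. The call of HKDC1 under OD in Caco-2, at 1.10 ± 0.09, was lost with library sizes alone (0.95) and in limma on the deposited log2 table (0.96). The summed hexokinase level became 6.72-fold under CoCl2 and 4.82-fold under OD in Caco-2 cells, and 5.64-fold and 1.74-fold in HT-29. ADPGK, which uses ADP in place of ATP to phosphorylate glucose, was called under CoCl2 in HT-29, at 1.81 ± 0.05, and measured 0.83 ± 0.08 in Caco-2. With OD its log2 fold change was 0.20 ± 0.08 in Caco-2 cells and 0.07 ± 0.05 in HT-29.

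**Figure D2:**
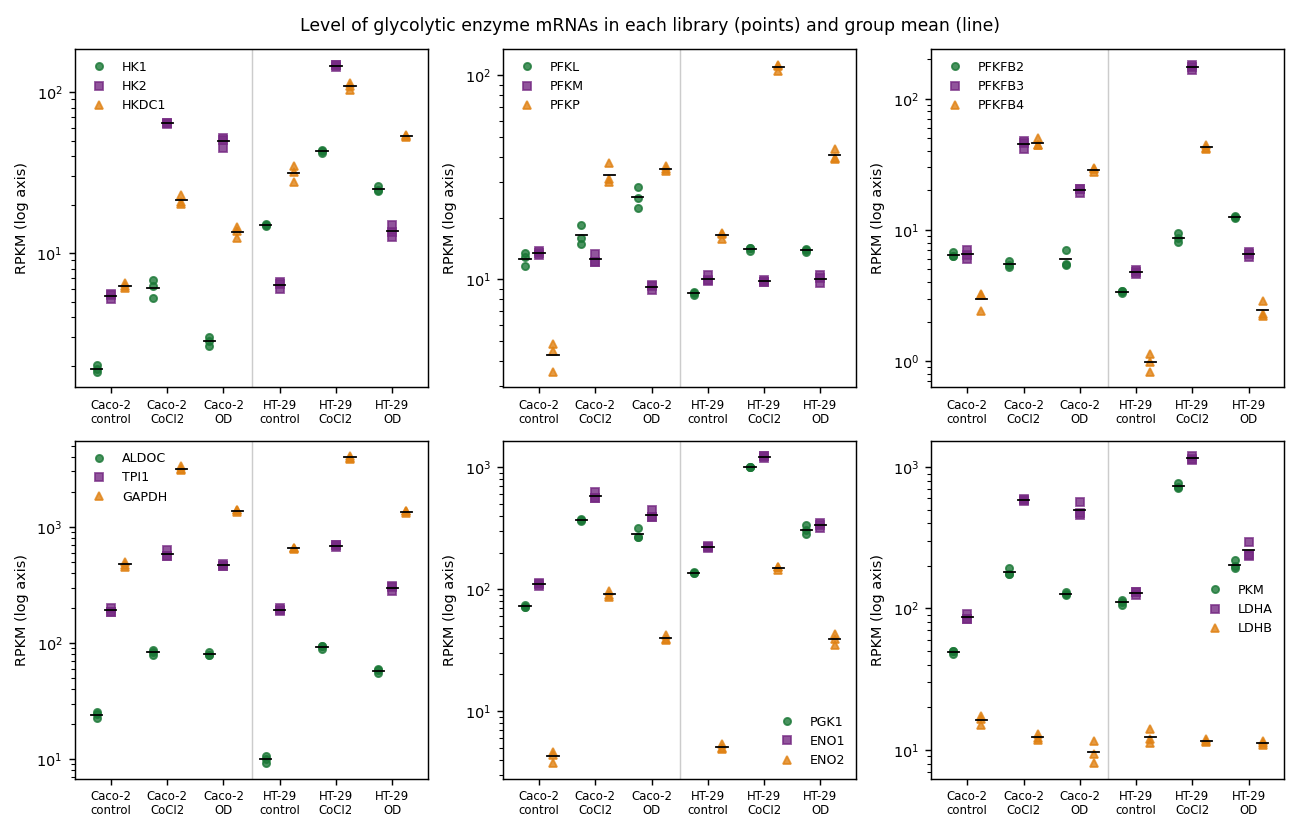
Level in RPKM (log axis) of 18 members in each of the 18 libraries, 3 per panel, with points for libraries and black lines for group means. HK2 in HT-29 runs from 6.34 RPKM in control to 146 under CoCl2, whereas LDHB stays within 8.05 to 17.3 RPKM in all 18 libraries.

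GPI, which isomerises glucose 6-phosphate to fructose 6-phosphate, rose under CoCl2 by 2.21 ± 0.08 in Caco-2 cells and 2.92 ± 0.05 in HT-29, and under OD by 1.65 ± 0.07 in Caco-2. In HT-29 under OD it measured 0.91 ± 0.05. Phosphofructokinase 1 commits the sugar to glycolysis and has a liver, a muscle and a platelet isoform. PFKP, the platelet isoform, measured 4.46, 4.82 and 3.52 RPKM in the controls of Caco-2, 37.1, 30.9 and 29.95 under CoCl2 and 34.9, 33.9 and 36.001 under OD. Its values in HT-29 were 16.8, 16.8 and 15.8 RPKM in control, 112, 105 and 113 under CoCl2 and 43.7, 38.9 and 39.4 under OD. PFKP was thus above control in each treated library, by 2.93 ± 0.10 under CoCl2 and 3.03 ± 0.10 under OD in Caco-2 cells, and by 2.74 ± 0.05 and 1.31 ± 0.05 in HT-29. PFKL, the liver isoform, was called only under OD in Caco-2, at 1.00 ± 0.09, and lost the call without replicate 3 (0.93), with library sizes alone (0.85) and in limma on the deposited log2 table (0.91). The other 3 changes of PFKL lay between 0.38 and 0.72, all with FDR of at most 9.96e-04. PFKM, the muscle isoform, was called in none of the 4 comparisons and ranged from -0.56 to -0.00356. The summed PFK level became 2.03-fold under CoCl2 in Caco-2 cells and 3.81-fold in HT-29.

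The PFKFB genes encode enzymes that make and break fructose 2,6-bisphosphate, the strongest activator of phosphofructokinase 1, and PFKFB3 favours its synthesis. PFKFB3 measured 6.48, 7.09 and 6.02 RPKM in the controls of Caco-2, 47.9, 46.4 and 41.4 under CoCl2 and 20.4, 20.4 and 19.2 under OD. In HT-29 it stood at 4.64, 4.92 and 4.78 RPKM in control, 182, 165 and 176 under CoCl2 and 6.85, 6.18 and 6.54 under OD. It rose by 2.79 ± 0.08 under CoCl2 and 1.61 ± 0.08 under OD in Caco-2 cells and by 5.19 ± 0.06 under CoCl2 in HT-29. The change under OD in HT-29 was 0.45 ± 0.06, FDR 2.18e-07. PFKFB4 measured 3.22, 3.25 and 2.39 RPKM in the controls of Caco-2, 50.3, 44.3 and 44.2 under CoCl2 and 27.8, 29.7 and 29.01 under OD. The HT-29 libraries gave 1.13, 0.981 and 0.828 RPKM in control, 44.7, 41.1 and 42.5 under CoCl2 and 2.85, 2.28 and 2.19 under OD. PFKFB4 had the largest fitted change of the members under CoCl2 in HT-29, 5.48 ± 0.09, and was called in the other 3 comparisons at 3.97 ± 0.10, 3.28 ± 0.10 and 1.35 ± 0.11, where the last was 0.79 in limma on the deposited log2 table and lost the call. PFKFB2, the form known from heart, went from 3.40, 3.43 and 3.33 RPKM in the controls of HT-29 to 8.74, 9.41 and 8.13 under CoCl2 and 12.7, 12.4 and 12.6 under OD. Those increases were 1.37 ± 0.06 and 1.89 ± 0.05, and the first fell to 0.74 with library sizes alone. In Caco-2, PFKFB2 lay between 5.22 and 7.03 RPKM in all 9 libraries, with changes of -0.24 ± 0.09 and -0.11 ± 0.09. OD raised PFKFB2 and PFKFB4 in HT-29, and PFKFB3 and PFKFB4 in Caco-2. The summed PFKFB level became 6.08-fold under CoCl2 and 3.44-fold under OD in Caco-2 cells, and 24.7-fold and 2.36-fold in HT-29.

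FBP1 reverses the phosphofructokinase step in gluconeogenesis. Its level in Caco-2 was 1.89, 1.94 and 1.88 RPKM in control, 0.434, 0.926 and 0.720 under CoCl2 and 0.467, 0.348 and 0.245 under OD, from 6 to 56 counts a library. FBP1 fell in Caco-2 by 1.43 ± 0.29 (log2) under CoCl2 and 2.41 ± 0.33 under OD, FDR 1.67e-04 and 1.54e-06. In HT-29 it measured 19.6 ± 0.368, 16.7 ± 0.732 and 10.3 ± 0.353 RPKM in control, CoCl2 and OD, with changes of -0.23 ± 0.06 and -0.93 ± 0.07. PCAT7, a non-coding gene on the opposite strand, covers 14.8% of the exonic bases of FBP1, and whether strand was used in counting is not stated. TIGAR, which lowers fructose 2,6-bisphosphate, held 21 to 101 counts a library, has 18.1% of its exonic bases under another gene of the same strand, and was called in none of the 4 comparisons, at -0.26 ± 0.27 and -0.55 ± 0.28 in Caco-2 cells and 0.53 ± 0.14 and -0.78 ± 0.16 in HT-29. With library sizes alone the value under CoCl2 in HT-29 turned to -0.11.

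Aldolase splits fructose 1,6-bisphosphate. ALDOC, the brain isoform, measured 25.2, 24.2 and 22.6 RPKM in the controls of Caco-2, 86.8, 78.5 and 83.7 under CoCl2 and 78.4, 78.9 and 84.2 under OD. In HT-29 the values were 9.22, 10.6 and 9.96 RPKM in control, 93.3, 89.2 and 93.2 under CoCl2 and 60.04, 54.6 and 58.5 under OD. ALDOC rose by 1.79 ± 0.08 and 1.74 ± 0.08 in Caco-2 cells and by 3.21 ± 0.06 and 2.54 ± 0.06 in HT-29. ALDOA, the isoform of muscle and most other tissues, held only 57 to 724 counts a library. A protein-coding gene on the same strand covers 42.8% of its exonic bases in GENCODE v44, and its part in the low count of ALDOA was not tested. The ALDOA row was called higher in all 4 comparisons, at 3.54 ± 0.23 and 2.43 ± 0.24 in Caco-2 cells and 3.70 ± 0.10 and 1.33 ± 0.12 in HT-29, where the last was 0.66 in limma on the deposited log2 table and lost the call. The same limit on the counts of ALDOA touches its ratio to ALDOC.

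Of the 5 members from TPI1 to BPGM, CoCl2 raised 4 in both lines. GAPDH, the most abundant member in every group, measured 450.1, 500.3 and 472 RPKM in the controls of Caco-2, 3318, 3057 and 3125 under CoCl2 and 1390.2, 1333 and 1407 under OD. In HT-29 it measured 649.8, 651 and 659.6 RPKM in control, 4068, 3948 and 3869 under CoCl2 and 1369.7, 1310.2 and 1367 under OD. GAPDH oxidises glyceraldehyde 3-phosphate and rose by 2.74 ± 0.08 and 1.54 ± 0.07 in Caco-2 cells and by 2.60 ± 0.04 and 1.05 ± 0.04 in HT-29, where the last was 0.91 with library sizes alone. TPI1, which interconverts the trioses, rose by 1.62 ± 0.07 and 1.29 ± 0.07 in Caco-2 cells and by 1.83 ± 0.05 under CoCl2 in HT-29, and measured 0.63 ± 0.04 under OD there. PGK1, the first ATP-forming enzyme, went from 72.99 ± 1.63 to 371 ± 6.52 RPKM under CoCl2 and 286 ± 28.2 under OD in Caco-2. In HT-29 PGK1 went from 137 ± 2.57 to 1007 ± 1.92 and 309 ± 26.5 RPKM. Its log2 fold changes were 2.34 ± 0.08, 1.97 ± 0.08, 2.88 ± 0.05 and 1.18 ± 0.05 in the same order, all called. PGAM1, which moves the phosphate of 3-phosphoglycerate, rose by 1.48 ± 0.09 and 1.36 ± 0.09 in Caco-2 cells and by 2.19 ± 0.07 under CoCl2 in HT-29, and measured 0.74 ± 0.07 under OD there. Its 13 pseudogene rows held 3.54% as many counts as PGAM1. BPGM, which makes 2,3-bisphosphoglycerate, was called in none, at values from -0.44 to 0.25.

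Enolase forms phosphoenolpyruvate. ENO2, the neuronal isoform, measured 4.39, 4.65 and 3.74 RPKM in the controls of Caco-2, 96.8, 89.5 and 86.2 under CoCl2 and 42.1, 38.3 and 39.02 under OD. In HT-29 the values were 4.88, 5.41 and 5.01 RPKM in control, 152, 145 and 151 under CoCl2 and 42.9, 34.97 and 39.05 under OD. ENO2 rose by 4.41 ± 0.09 and 3.22 ± 0.09 in Caco-2 cells and by 4.87 ± 0.07 and 2.93 ± 0.07 in HT-29. ENO1, the ubiquitous isoform, stayed more abundant in every library, rising in Caco-2 from 109.7 ± 3.45 to 582 ± 39.5 RPKM under CoCl2 and 409 ± 29.6 under OD. In HT-29 its change was 2.46 ± 0.04 under CoCl2 and 0.60 ± 0.04 under OD, the latter under the limit on size. ENO3, the muscle isoform, fell under CoCl2 by 1.29 ± 0.27 in Caco-2 cells and 1.52 ± 0.16 in HT-29, from 0.795 ± 0.124 and 1.63 ± 0.174 RPKM in control. In limma on the deposited log2 table these changes were -0.45 and -0.79, and both lost the call.

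Pyruvate kinase yields pyruvate and ATP. PKM, the form outside liver and red cells, rose in Caco-2 from 49.3 ± 1.31 to 181 ± 10.6 RPKM under CoCl2 and 127 ± 2.86 under OD. The changes were 1.87 ± 0.07 and 1.36 ± 0.07 there, and 2.74 ± 0.05 under CoCl2 and 0.88 ± 0.05 under OD in HT-29, the last not called. The table counts genes, so that the splice forms PKM1 and PKM2 cannot be told apart. PKLR, the form of liver and red cells, held 75, 62 and 44 counts in the controls of Caco-2, 15, 23 and 20 under CoCl2 and 31, 43 and 37 under OD, and fell under CoCl2 by 1.55 ± 0.26. In HT-29 no library held more than 7 counts of PKLR. HCN3 on the opposite strand covers 17.6% of the exonic bases of PKLR, and opposite-strand genes cover 17.6% of GAPDH and 11.3% of ALDOC.

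Lactate dehydrogenase A favours lactate formation and B is the heart form. LDHA measured 92.1, 84.6 and 84.8 RPKM in the controls of Caco-2, 582, 579.8 and 592 under CoCl2 and 564, 472 and 456 under OD. In HT-29 LDHA measured 131, 131 and 124 RPKM in control, 1132, 1148 and 1198 under CoCl2 and 297, 236 and 241 under OD. All treated libraries were above control, by 2.75 ± 0.09 and 2.51 ± 0.08 in Caco-2 cells and 3.18 ± 0.06 and 1.01 ± 0.06 in HT-29. That last value barely passed the limit and lost the call with DESeq2 (0.99), with library sizes alone (0.87), with median-ratio factors (0.99), with limma on the deposited log2 table (0.97) and without replicate 1 (0.90). LDHB measured 16.6, 14.9 and 17.3 RPKM in the controls of Caco-2, 11.8, 12.1 and 12.8 under CoCl2 and 8.05, 11.6 and 9.32 under OD. In HT-29 it was at 12.4 ± 1.44 RPKM in control, 11.6 ± 0.235 under CoCl2 and 11.1 ± 0.359 under OD. LDHB was called in none of the 4 comparisons, with values of -0.41 ± 0.11 and -0.75 ± 0.11 in Caco-2 cells and -0.10 ± 0.07 and -0.16 ± 0.07 in HT-29. A second gene on the same strand covers 33.4% of the exonic bases of LDHB. Its part in the level of LDHB, in the share of LDHB and in the LDHA:LDHB ratio was not tested. LDHD, a mitochondrial enzyme that oxidises D-lactate, measured 24.1, 26.3 and 25.5 RPKM in the controls of Caco-2, 5.28, 5.31 and 3.18 under CoCl2 and 6.71, 9.39 and 10.1 under OD. It fell by 2.49 ± 0.15 and 1.54 ± 0.14. In HT-29 the counts of LDHD were 9, 15 and 25 in control, 1, 0 and 1 under CoCl2 and 15, 10 and 15 under OD. The control rate was 16.2 times the CoCl2 rate, with an exact 95% interval from 4.26 to 138 that covers counting error only, as it rests on 49 against 2 counts.

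Phosphoglucomutases link glycogen to glycolysis. PGM1, the larger isoform in Caco-2 and the smaller next to PGM2 in the controls of HT-29, rose under CoCl2 by 1.34 ± 0.08 in Caco-2 cells and 1.93 ± 0.06 in HT-29, while OD gave 0.89 ± 0.08 and 0.76 ± 0.06, under the limit. PGM2, which prefers pentose phosphates, measured -0.26 ± 0.10 and -0.17 ± 0.10 in Caco-2 cells and -0.52 ± 0.06 and 0.20 ± 0.06 in HT-29. PGM2L1, which makes glucose 1,6-bisphosphate, ranged from 0.13 to 0.78 and was not called. With library sizes alone the value of PGM2L1 under CoCl2 in HT-29 turned to -0.50, and that of BPGM to -0.38.

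Isoform shares shifted within the steps. Of the summed hexokinase level, HK2 made up 39.8% ± 0.618 in the controls of Caco-2, 70.01% ± 1.68 under CoCl2 and 75.1% ± 1.83 under OD. In HT-29 it made up 12.02% ± 0.248, 48.98% ± 0.367 and 14.8% ± 0.936, so that HKDC1 remained the larger part under OD there, at 57.9% ± 1.29. PFKP went from 14.01% ± 1.78 of phosphofructokinase to 52.9% ± 0.749 under CoCl2 and 50.4% ± 1.85 under OD in Caco-2 cells, and from 46.9% ± 1.09 to 82.1% ± 0.363 and 62.9% ± 1.77 in HT-29. Within the PFKFB group PFKFB2 took 37.1% ± 0.266 in the controls of HT-29, 3.89% ± 0.408 under CoCl2 and 58.4% ± 1.55 under OD, against 40.6% ± 2.41, 5.68% ± 0.644 and 10.9% ± 1.59 in Caco-2. ENO2 rose from 3.71% ± 0.373 to 13.5% ± 0.237 and 8.86% ± 0.175 of enolase in Caco-2 cells and from 2.23% ± 0.125 to 10.9% ± 0.0978 and 10.3% ± 0.502 in HT-29. LDHB shrank from 15.7% ± 1.07 to 2.05% ± 0.0712 and 1.93% ± 0.494 of the LDHA and LDHB sum in Caco-2 cells, and from 8.80% ± 1.19 to 0.991% ± 0.0416 and 4.18% ± 0.483 in HT-29. PGM1 took 29.7% ± 1.31 of phosphoglucomutase in the controls of HT-29, 68.9% ± 1.14 under CoCl2 and 37.5% ± 1.28 under OD. The size of these shares depends on the gene lengths used. Those lengths were 5525 bases for PFKP and 5550 for ALDOA, against 7774 and 3829 exonic bases in GENCODE 44. Shares with the GENCODE 44 lengths were not computed. As shares of counts, without lengths, the shifts named here kept their direction. By counts PFKP held 39.95% and PFKL 46.4% under OD in Caco-2, so that their order turned. In the controls of Caco-2, LDHB then held 8.44% and PFKFB2 53.2%.

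**Figure D3:**
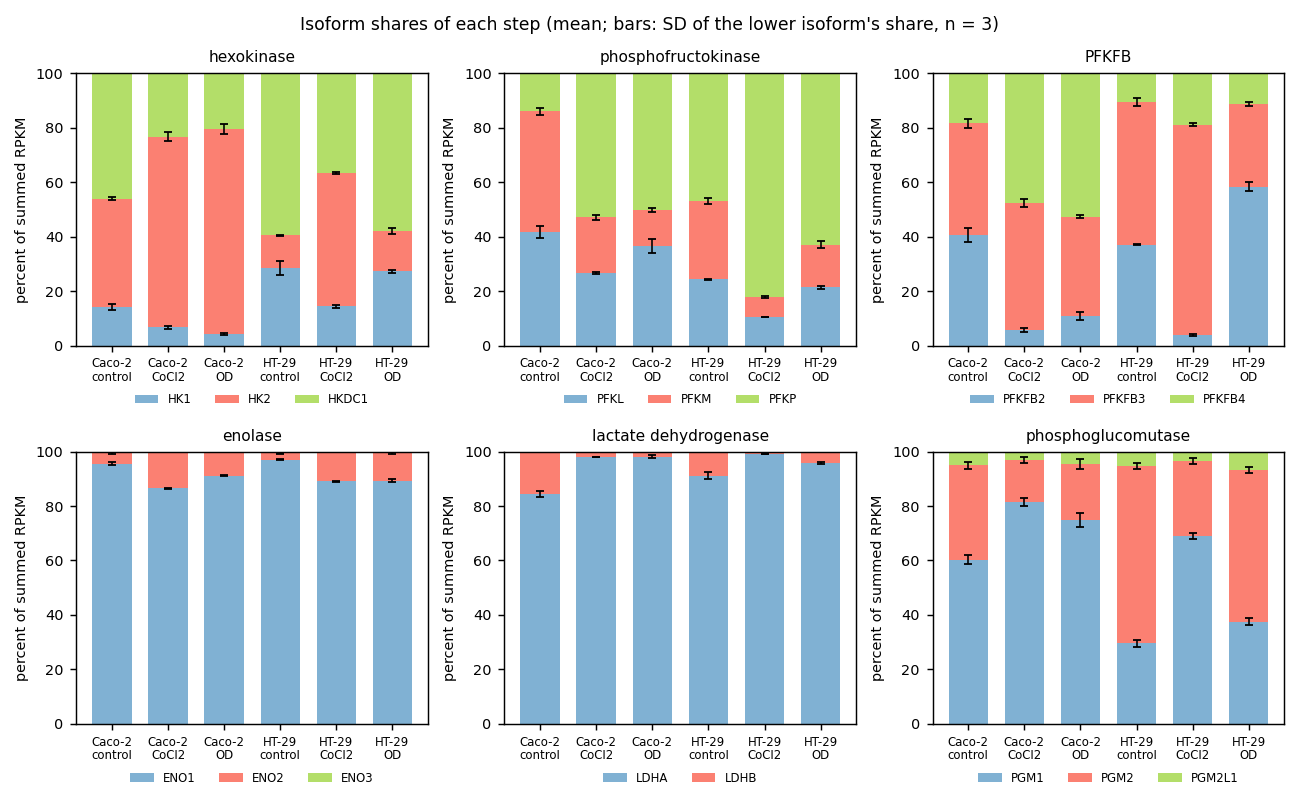
Mean share (percent of summed RPKM, n = 3) of each isoform in 6 steps and 6 groups, stacked to 100, with bars for the SD of the share that ends there. The red segments of the hexokinase panel show HK2 at 75.1% under OD in Caco-2 cells and 14.8% under OD in HT-29.

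The change of an isoform ratio within a library depends neither on library scaling nor on gene length, and was tested by a two-sided exact permutation test stratified by line. Of 26 tests (13 pairs and 2 agents), 22 passed at an adjusted p under 0.05. The smallest p is 0.005, and 0.1 within a line of 3 against 3, so that single lines cannot pass. The tests are not independent, since pairs share genes and both agents share control libraries. Other gene pairs were not tested, so the count shows no trait particular to these pairs. A pass need not hold in each line. PFKFB4:PFKFB3 under CoCl2 passed with 1.19 ± 0.11 in Caco-2 cells and 0.27 ± 0.14 in HT-29. In HT-29 its treated and control libraries overlapped. The HK2:HK1 ratio rose by 1.90 ± 0.13 (log2) under CoCl2 in Caco-2 cells and 3.01 ± 0.06 in HT-29, and under OD by 2.62 ± 0.10 and 0.36 ± 0.07, adjusted p = 0.00619 in each of these permutation tests. The LDHA:LDHB ratio rose by 3.15 ± 0.07 and 3.26 ± 0.13 under CoCl2, and by 3.27 ± 0.24 and 1.15 ± 0.16 under OD. ENO2:ENO1 rose by 2.01 ± 0.09 and 2.42 ± 0.05 under CoCl2, and by 1.33 ± 0.09 and 2.33 ± 0.07 under OD. Of the 13 pairs ENO3:ENO1 changed most under CoCl2, by -3.70 ± 0.19 and -3.98 ± 0.17. ENO3 held 15 to 29 counts a library under CoCl2 in Caco-2 cells and 28 to 35 in HT-29, and ENO1 rose in both lines. PFKP gained on PFKL by 2.56 ± 0.15 and 2.02 ± 0.02 under CoCl2 and by 2.05 ± 0.17 and 0.60 ± 0.05 under OD. PFKFB3:PFKFB2 moved in opposite directions under OD, by 1.74 ± 0.13 in Caco-2 cells and -1.44 ± 0.04 in HT-29, and the stratified permutation test gave p = 0.635. The other 3 that did not pass, ALDOC:ALDOA, PKLR:PKM and PGM2L1:PGM1 under OD, had adjusted p of 0.463, 0.368 and 0.249 in the permutation test. Their signs differed between the lines too, so that the mean over lines cannot show a change in a single line. ALDOC:ALDOA changed by -0.60 ± 0.38 in Caco-2 cells and 1.24 ± 0.16 in HT-29. The values were -2.02 ± 0.20 and 0.72 ± 0.91 for PKLR:PKM, and -0.45 ± 0.26 and 0.006 ± 0.08 for PGM2L1:PGM1. The PKLR:PKM value under CoCl2 rests in HT-29 on at most 3 counts of PKLR in a library.

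**Figure D4:**
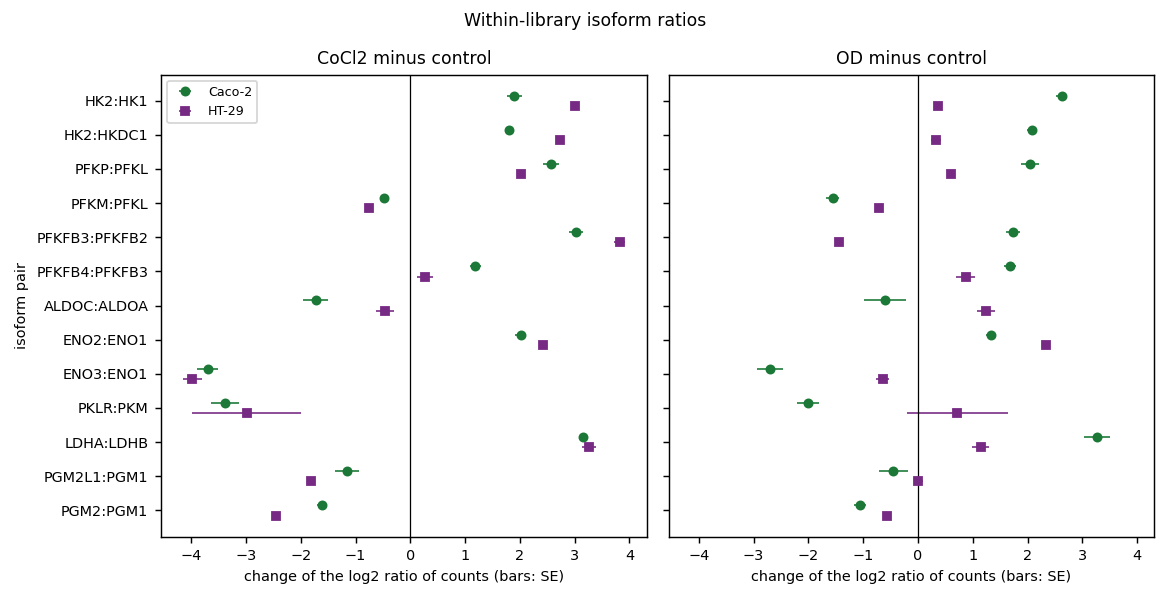
Change of the log2 count ratio of 13 isoform pairs under CoCl2 (left) and OD (right), in Caco-2 (circles) and HT-29 (squares), with SE bars. The PFKFB3:PFKFB2 points lie on opposite sides of 0 under OD, at 1.74 and -1.44.

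CoCl2 and OD were also compared directly, at 300 µM and 5 µM, doses that are not matched. In Caco-2, 5 of 31 members were called higher under CoCl2 than under OD and 0 lower, against 5.21% and 6.44% of all genes, with 3 lower at an unadjusted p under 0.05 in edgeR and 0 called lower by DESeq2. That 0 depends on the libraries kept, since LDHD was called lower without replicate 1 (-1.22) and without replicate 2 (-1.02), and PKLR without replicate 2 (-1.02), while FBP1 was called higher without replicate 1 (1.43). The 5 were HK1, PFKFB3, ALDOA, GAPDH and ENO2, at 1.11, 1.18, 1.12, 1.20 and 1.19. For PFKP the difference was -0.10 ± 0.09 with a 95% interval from -0.29 to 0.09, and for ALDOC it was 0.04 ± 0.07, interval -0.10 to 0.19. In HT-29, 18 of 30 members were called higher under CoCl2 and 2 lower, against 10.8% and 19.2%. With library sizes alone these counts were 12 and 5 in HT-29, against 4.95% and 33.4% of all genes, and 3 and 2 in Caco-2, against 3.75% and 9.5%. HK1 and ALDOA lost the call in Caco-2 under that scaling and in limma on the deposited log2 table. The largest increases in HT-29 were those of PFKFB3, PFKFB4 and HK2, 4.74 ± 0.06, 4.13 ± 0.08 and 3.42 ± 0.06. LDHD and ENO3 were the 2 called lower, at -3.67 and -1.49, and the LDHD value rests on 2 counts under CoCl2. HKDC1, at 1.03 in HT-29, lost the call without a filter (0.98), without replicate 2 (0.99) and in limma on the deposited log2 table (0.95). In that limma fit TIGAR went from 1.31 to 0.34 and ENO3 from -1.49 to -0.74, and both lost the call.

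Some members responded differently in the lines. The difference is the HT-29 response minus the Caco-2 response, tested as an interaction over 18 libraries. For CoCl2, 5 members were called higher and 0 lower, against 7.79% and 13.8% of all genes, with 4 lower at an unadjusted p under 0.05 in edgeR and 0 called lower by DESeq2. They were PFKFB3 at 2.29 ± 0.10, PFKFB2 at 1.501 ± 0.11, PFKFB4 at 1.40 ± 0.15, ALDOC at 1.31 ± 0.10 and FBP1 at 1.09 ± 0.23. FBP1 lost the call without replicate 1 (0.83) and with library sizes alone (0.88). For OD, 7 members were called lower and 4 higher, against 6.24% and 8.96%. The 7 were HK2 at -2.10 ± 0.10, PFKFB4 at -1.95 ± 0.16, PFKP at -1.74 ± 0.12, LDHA at -1.52 ± 0.11, ENO1 at -1.32 ± 0.09, PFKFB3 at -1.18 ± 0.10 and ALDOA at -1.12 ± 0.32. The 4 were PKLR, PFKFB2, FBP1 and LDHD, at 2.13, 1.99, 1.47 and 1.36. Of these, PKLR and LDHD rest on 0 to 7 and 9 to 25 counts in the control and OD libraries of HT-29. Without replicate 1 ALDOA (-0.60), LDHD (1.03) and PKLR (1.31) were not called, the last with FDR 0.247, nor was PKLR without replicate 3.

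**Figure D5:**
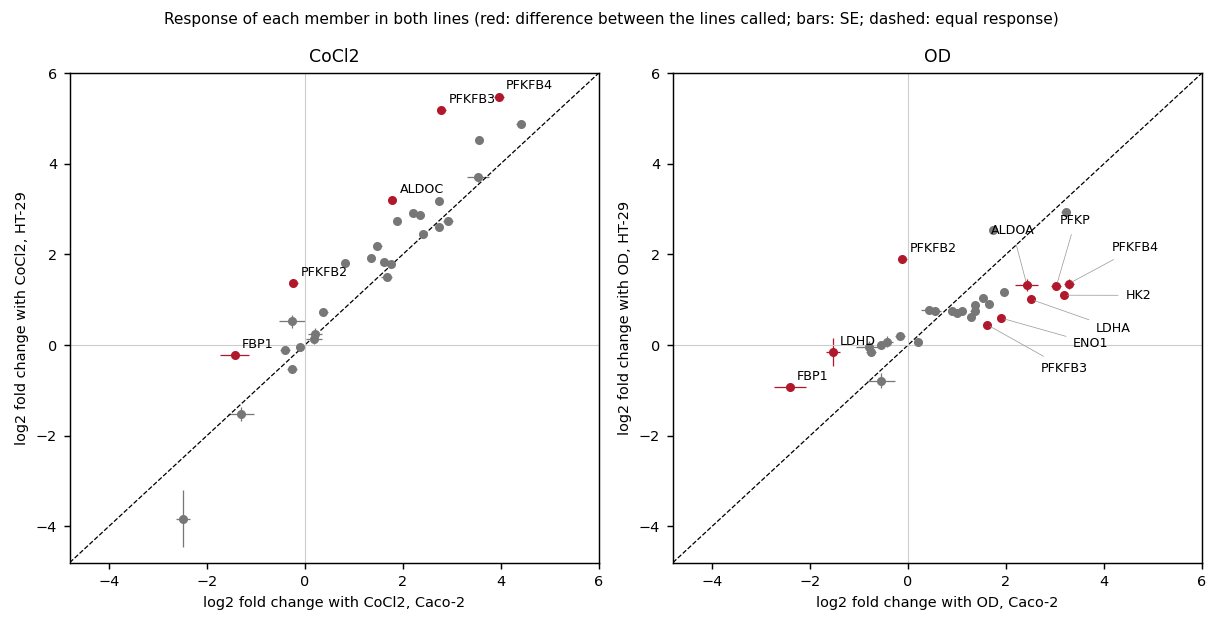
Log2 fold change of each member in Caco-2 (x axis) against HT-29 (y axis) under CoCl2 (left) and OD (right); bars are SE, the dashed line marks equal responses, and red points are called in the test of the difference between the lines. With OD, HK2 lies at 3.18 and 1.10, under the dashed line, and PFKFB2 at -0.11 and 1.89, above it; PKLR is not plotted.

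Some members differed between the lines in the control groups. There 8 of 31 members were called higher in HT-29 and 4 lower, against 21.6% and 24.2% of all genes. Higher in HT-29 were FBP1 at 3.45 ± 0.12, HK1 at 3.06 ± 0.08, HKDC1 at 2.41 ± 0.08 and PFKP at 2.03 ± 0.09, with ENO3, PGM2, PKM and ENO1 at 1.11, 1.16, 1.26 and 1.11. Lower were LDHD at -6.11 ± 0.19, PKLR at -5.10 ± 0.41 with 0 to 3 counts in HT-29, PFKFB4 at -1.53 ± 0.12 and ALDOC at -1.18 ± 0.07. By level, GAPDH led in the controls of both lines, followed in Caco-2 by TPI1 (190.3 RPKM), ENO1 (109.7), LDHA (87.2), PGK1 (73.0) and PKM (49.3), with no overlap between neighbours. In HT-29 ENO1 (222), TPI1 (193), PGK1 (137), LDHA (128) and PKM (111) followed, also without overlap. Further down, HKDC1 and GPI overlapped in HT-29, as did PFKM, PFKL and PGM1 in Caco-2.

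Related genes outside the list were counted in the same way. Of 13 further paralogues, 3 held enough counts for a test in each line. CoCl2 lowered PFKFB1, a PFKFB isoform, in Caco-2 cells by 1.23 and FBP2, the muscle fructose-bisphosphatase, in HT-29 by 1.91. OD raised PGM5 in HT-29 by 1.31. Of 16 linked sugar and triose enzymes, CoCl2 raised 2 and lowered 7 in Caco-2 cells and raised 1 and lowered 6 of 15 in HT-29. OD raised 1 and lowered 2 in Caco-2 cells and raised 2 in HT-29. Of all genes tested, CoCl2 raised 9.13% and lowered 14.2% in Caco-2 cells, and 17.4% and 23.9% in HT-29. The shares under OD were 4.43% raised and 7.27% lowered in Caco-2 cells, and 9.5% and 7.57% in HT-29.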

How the data were processed

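Messenger RNA of Caco-2 and HT-29 cells was measured in 18 libraries, 6 groups of 3, and groups were read from the sample titles. Per the labels, libraries came from a stranded mRNA kit and were read from a single end. The authors made the deposited counts, raw reads per gene, after cutadapt 2.10 and STAR 2.7.5b on GRCh38.p13 with GENCODE 34, and the counting tool and its use of strand are not given in the sources used here. The second table deposited by the authors holds log2 of RPKM plus 1 after TMM scaling within a line, listing 14230 genes, and served as an alternative and as the source of gene lengths, which agreed between libraries within 5.17%. The paper covers the Caco-2 cells, and its thresholds were applied to both lines. The 2 miRNA tables were not used, and 0 per-sample columns lacked a sample.

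Counts were tested with edgeR 4.0.16 in R 4.3.3 (quasi-likelihood F test, filterByExpr, two-sided, Benjamini-Hochberg over all genes tested). Each line was fitted alone over 9 libraries, and contrasts between lines over 18. Isoform ratios used counts plus 0.5 and exact permutation tests that enumerated all relabellings (Python 3.11.15, numpy 2.4.6). DESeq2 1.42.0, limma 3.58.1 on the log2 table, other scalings and filters, no limit on size, a replicate block and leaving out each replicate were alternatives. The fits were tested on simulated data. Promoter windows ended at the base before the start. Coordinates of genes and overlaps are those of GENCODE 44. All 31 members are named, and other genes only from short lists (paralogues, linked enzymes, reference genes, cell type markers). Of the listed genes, 2 are not reported here and stay out of the list counts. Members, listed by enzyme role, and the other lists were chosen with earlier results of these data known.

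Replicates of a group differed by more than counting error, the chi-square statistic over genes being 1.96 to 12.6 times its degrees of freedom. The largest values involved replicate 1 of the treated Caco-2 groups. Against replicates 2 and 3 it gave 8.79 and 10.7 under CoCl2 and 9.51 and 12.6 under OD. Replicates 2 and 3 gave 3.42 and 3.43 there. Replicate numbers did not pair samples across groups. The exact interval of the LDHD ratio covers counting error only, as reads carried no molecular identifiers, while intervals of log2 fold changes come from the edgeR fit and its spread between libraries.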

Additional observations from a re-analysis of the deposited data

Results flagged for a closer look

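The responses below differed between the lines in a test of the difference itself (HT-29 response minus Caco-2 response, log2, edgeR). For CoCl2 these were PFKFB3 at 2.29, PFKFB2 at 1.501, PFKFB4 at 1.40, ALDOC at 1.31 and FBP1 at 1.09. For OD the response was smaller in HT-29 for HK2 (-2.10), PFKFB4 (-1.95), PFKP (-1.74), LDHA (-1.52), ENO1 (-1.32), PFKFB3 (-1.18) and ALDOA (-1.12). It was higher in HT-29 for PKLR (2.13), PFKFB2 (1.99), FBP1 (1.47) and LDHD (1.36). PFKFB3 and PFKFB4 stand on both lists with opposite signs, and the CoCl2 and OD contrasts share their control libraries. Line and culture state cannot be told apart in any of these values.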

How the results depend on the processing

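Of 276 single-gene values (31 members or 30 in HT-29, over 9 comparisons), 267 kept direction and side of the FDR threshold under DESeq2, 268 under median-ratio size factors, 276 under a filter of 10 counts in 3 libraries, 269 without a filter and 245 with library sizes alone. With library sizes alone 6 turned sign: in HT-29 with CoCl2 against control BPGM (-0.38), PGM2L1 (-0.50) and TIGAR (-0.11), and with CoCl2 against OD BPGM (-0.32), LDHB (-0.44) and PFKL (-0.48). That scaling leaves out the TMM factors, which differ between groups. Without the limit on fold change, 23 members rather than 5 were called between CoCl2 and OD in Caco-2 (49.6% of all genes rather than 11.7%), 25 rather than 10 with OD in HT-29 (68.8% rather than 17.1%), 19 rather than 5 and 26 rather than 11 for the line differences under CoCl2 and OD (49.8% rather than 21.6%, 42.9% rather than 15.2%), and 27 rather than 12 between the control groups of the lines (79.1% rather than 45.8%). limma on the deposited log2 table gave 3 and 6 for the first 2 of these (2.59% and 5.99% of all genes), the calls lost being HK1 and ALDOA, then HK2, PFKFB4, ALDOA and LDHA, and ENO3 and PKLR lost their calls there under CoCl2. Adding 1 to RPKM shrinks changes of low genes. Leaving out a replicate kept 255 to 256 of the 276. Members' share of counts then rose by 2.00 to 2.06 percentage points with CoCl2 and by 0.755 to 0.806 with OD, and 0 isoform ratio tests passed, since 2 against 2 in both lines allows an exact permutation p of 0.0556 at the least. A replicate block kept 270 of 276 values and gave 22 of 26 isoform ratios and 22, 19, 22 and 10 members called against control. Deviations of samples with the same replicate number correlated between -0.0374 and 0.0519, so the numbers do not pair samples. Depth limits TIGAR and PKLR in both lines, FBP1 and ENO3 in Caco-2 and LDHD in HT-29 most, with at most 101 counts in a library.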

Other observations

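Genes around the members gave the following values. PCK1, which makes phosphoenolpyruvate in gluconeogenesis, was called higher in all 4 comparisons with control. The changes were 1.51 under CoCl2 and 2.75 under OD for Caco-2 cells, then 1.95 and 2.87 for HT-29 cells, where PCK1 reached at most 3.05 CPM. PCK2, its mitochondrial counterpart, was at -1.72, -0.85, -2.78 and -0.17 in the same order, called under CoCl2 only. GPD1, which diverts triose to glycerol 3-phosphate, fell under CoCl2 by 2.51 in Caco-2 cells and 2.15 in HT-29. Under OD it measured -1.30 in Caco-2 and 1.37 in HT-29, opposite signs that were both called.

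GAPDH and PGK1 serve in many laboratories as reference genes. Of 11 other such genes, 1 was called under OD in Caco-2 (TFRC, 1.12) and 2 under CoCl2 in HT-29 (B2M at 1.20, RPLP0 at 1.04). Of all genes tested, 4.43% and 17.4% were called higher in the same comparisons. Under CoCl2 in Caco-2 and under OD in HT-29, 10 of the 11 passed the FDR in each, all with changes inside the limit of 1. With no limit on size, 5067 of 16034 genes passed as higher and 5303 as lower in the first, and 68.8% of all genes passed in the second. The median log2 fold change of the 11 was 0.56 and 0.33 under CoCl2 and OD in Caco-2 cells and 0.52 and 0.27 in HT-29, above the median of all genes, which lay between -0.03 and 0.01. GAPDH itself changed by 2.74 and 1.54 in Caco-2 cells and 2.60 and 1.05 in HT-29. Set against GAPDH, 7 of the 30 other members changed more and 23 less under CoCl2 in Caco-2, and 11 and 18 of 29 in HT-29.

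GAPDH, TPI1 and ENO2 lie within 389187 bases on chromosome 12. Of 25 other genes in the table between GAPDH and ENO2, 18 were tested. CoCl2 lowered 4 in Caco-2 cells, against 14.2% of all genes tested. In HT-29 it raised 3 and lowered 4, against 17.4% and 23.9%. OD lowered 3 in Caco-2 cells, against 7.27%, and raised 2 in HT-29, against 9.5%. The 18 were not wholly the same genes in the 2 lines. Their median log2 fold change lay between -0.34 and -0.02 over these 4 comparisons.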
